A study of Mus musculus with 18 samples.

Results

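The genes described here are insulin-like growth factor 1 (Igf1) with the related ligand Igf2, the receptors Igf1r and Igf2r, and the binding proteins Igfbp2, Igfbp4, Igfbp5 and Igfbp7. A gene was represented by the probe set annotated to its symbol alone. Each of the 8 genes had 1 such probe set, and they were 8 of the 22180 genes tested. Microglia, the macrophages that reside in brain tissue, had been isolated from untreated healthy C57Bl/6 mice kept under specific-pathogen-free conditions. The cells came from the cortex or from the corpus callosum, the large white matter tract beneath it, at postnatal day 3 (P3), at P7 or in the adult. Every group had 3 arrays, so that 18 arrays entered in 6 groups: cortex P3, callosum P3, cortex P7, callosum P7, cortex adult and callosum adult. Cells were purified over Percoll and sorted as positive for CD45 and CD11b, which microglia share with other myeloid cells, and negative for Gr1, a granulocyte marker. The RNA was amplified before hybridisation. The labels used here do not give the adult age, the sex, the number of animals behind an array, or whether the 3 arrays of a group came from separate animals, so p-values measure only the spread between these arrays.

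IGF1 is a secreted growth factor that signals through the receptor tyrosine kinase IGF1R, which activates the PI3K-AKT-mTOR and RAS-MAPK cascades by way of insulin receptor substrate proteins. IGF2 also binds IGF1R, while IGF2R carries IGF2 to lysosomes, and secreted binding proteins hold IGFs outside cells until proteases cleave them. In the developing brain IGF1 is known for promoting the survival and maturation of oligodendrocytes and myelination.

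Igf1 lies on chromosome 10 from 87858265 to 87937047 of the mouse assembly GRCm38.p6, and Igfbp4 on chromosome 11 from 99040005 to 99052655; both are protein-coding. Their upstream windows are printed because these were the genes of the set whose levels differed between groups. All 8 genes had at least 1 entry in RefSeq's promoter table of that assembly, 12 windows in all. Each printed window holds the 250 bases before a RefSeq transcript start on the plus strand, at chr10:87860861-87861110 for Igf1 and at chr11:99040994-99041243 for Igfbp4. The Igf1 transcript started 2846 bases inside the annotated gene and the Igfbp4 transcript 1239 bases inside it, so other starts of these genes lie upstream. Capitals mark matches to 5 short motifs searched on both strands. They were the core bound by PU.1 and other ETS factors, GAGGAA, and TGANTCA, a loose form of the AP-1 motif. The others were the E-box CACGTG, the STAT motif TTCNNNGAA and the TATA box TATAAA. N stands for any base.
Igf1: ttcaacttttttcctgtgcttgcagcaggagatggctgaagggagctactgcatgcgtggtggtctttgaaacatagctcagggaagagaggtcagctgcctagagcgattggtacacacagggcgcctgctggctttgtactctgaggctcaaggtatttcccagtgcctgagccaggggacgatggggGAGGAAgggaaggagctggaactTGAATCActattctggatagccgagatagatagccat
Igfbp4: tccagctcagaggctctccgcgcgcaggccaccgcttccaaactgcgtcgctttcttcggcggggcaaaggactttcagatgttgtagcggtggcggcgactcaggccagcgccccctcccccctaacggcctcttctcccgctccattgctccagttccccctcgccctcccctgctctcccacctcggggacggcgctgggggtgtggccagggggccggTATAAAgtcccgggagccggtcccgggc
The Igf1 window held a GAGGAA match that began 60 bases before the transcript start and a TGANTCA match that began 37 bases before it. The latter read TGAATCA, with A in the place of N. Over all 32851 mouse windows of that length, 23.3% held GAGGAA and 6.75% held TGANTCA. The Igfbp4 window held TATAAA 28 bases before the start, as did 12.4% of all windows somewhere in their length. CACGTG, found in 6.02% of all windows, and TTCNNNGAA, in 7.02%, were in neither window. The windows also differed in composition, with 52.8% G and C and 5 CpG dinucleotides for Igf1 against 69.2% and 22 for Igfbp4. A match is a run of letters and says nothing of binding.

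Levels are log2 values from robust multi-array averaging (RMA). Medians of the 18 arrays over all probe sets lay between 5.58 and 5.74. A call means an adjusted p under 0.05 in limma's moderated test, two-sided, with Benjamini-Hochberg adjustment over all 22180 genes of a comparison. Differences are given on the log2 scale with their standard error (SE). An exact permutation test of 3 arrays against 3 cannot go below 0.1, so limma's pooled spread over all groups carries every call. The mean over 13 microglia markers was 10.41 to 11.25 on every array, and P2ry12, a purinergic receptor that marks microglia, was at 11.48 to 12.26. Ly6g of neutrophils (2.83 to 4.56), Cldn5 of endothelium (5.15 to 5.62) and Dcn of fibroblasts (3.83 to 4.27) stayed under the array medians or within their range. The 8 neutrophil markers averaged 4.34 to 5.88, highest on callosum P3 replicate 3 (5.88), callosum P7 replicate 1 (5.47) and cortex P3 replicate 1 (5.33). Unlike Ly6g, S100a8 of that list, named here after its values were seen, read 8.76, 7.35 and 8.19 on these arrays in turn. It read 6.38 and 6.53 on callosum P3 replicates 1 and 2 and 6.52 on cortex P3 replicate 2. The other P3 and P7 arrays read 3.85 to 5.35 and the adult arrays 3.67 to 4.56. At P7 every callosum array was above every cortex array for S100a8, as for Igf1, and the cortex P7 arrays read 3.85 to 4.99. The labels carry one array-set prefix on all P3 arrays and another on all P7 and adult arrays. Region comparisons and adult against P7 therefore lie within one set, whereas for P7 against P3 age and array set cannot be told apart. In all these comparisons of sorted populations, fewer cells of a type that express a gene and less RNA per cell cannot be told apart.

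Igf1 was the member that varied most. Its level was high in young callosal microglia, intermediate in young cortical microglia, and near the array median in the adult of both regions. The 6 group means spanned 4.05 on the log2 scale, a wider span than that of 99.9% of the genes tested. On the 3 cortex P3 arrays Igf1 read 7.90, 8.19 and 8.43, and on the callosum P3 arrays it read 9.70, 9.63 and 9.26. All 3 callosum P3 arrays were above all 3 cortex P3 arrays. The mean was 9.53 ± 0.24 (SD, n = 3) in callosum and 8.17 ± 0.27 in cortex, a difference of 1.35 (SE 0.27, 95% interval 0.79 to 1.92), or 2.56-fold, with a limma adjusted p of 0.031. This was the only one of the 8 members called at P3, where 0.505% of all genes were called. The call was lost in 6 of 16 alternative analyses: adjusted p was 0.0528 after a second quantile normalisation, 0.0588 with array weights, and 0.0647 to 0.142 with callosum P3 replicate 1 or 2 or cortex P3 replicate 1 or 2 left out, while the difference stayed between 1.22 and 1.49.

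At P7 the regional difference in Igf1 was 2.44 (SE 0.27, 95% interval 1.87 to 3.00), or 5.41-fold, and it was the eighth largest of all genes by size. The cortex P7 arrays read 7.997, 6.84 and 7.38, with a mean of 7.40 ± 0.58 (SD, n = 3). The callosum P7 arrays read 10.49, 9.54 and 9.49, with a mean of 9.84 ± 0.56. Every callosum array was again above every cortex array, and within the callosum replicate 1 stood above the rest. The limma adjusted p was 9.05e-05. Igf1 was the only member called at P7, where 0.451% of all genes were called, and the call held in all 16 alternatives.

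In the adult Igf1 did not separate the regions. The cortex adult arrays read 5.70, 5.94 and 5.71 and the callosum adult arrays 6.20, 6.01 and 5.69, so that the groups overlapped. The means were 5.79 ± 0.14 and 5.96 ± 0.26 (SD, n = 3), a difference of 0.18 (SE 0.27, 95% interval -0.39 to 0.74) with a limma adjusted p of 0.897. In this comparison 0.00451% of genes, that is 1 gene, were called and 1888 had an unadjusted p under 0.05. None of the 8 members were called by limma and 0 of them had an unadjusted p under 0.05. The adult Igf1 levels lay near the array medians, which limits what this comparison can show for it.

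**Figure D1:**
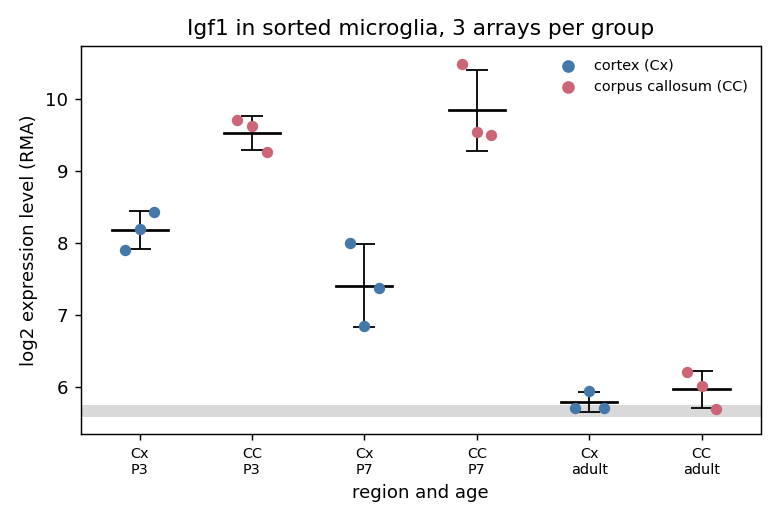
Log2 expression level of Igf1 (y axis) in the 6 groups by region and age (x axis). Each point is 1 array, blue for cortex and red for corpus callosum; bars are the mean ± SD of 3 arrays and the grey band is the range of the array medians over all probe sets, 5.58 to 5.74. The callosum arrays at P3 and P7 lie between 9.26 and 10.49, all above the cortex arrays of their age, and the 6 adult arrays lie between 5.69 and 6.20.

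Igf1 fell with age in both regions between P7 and the adult. In cortex it fell by 1.62 (SE 0.27, 95% interval -2.18 to -1.06), which is 3.07-fold lower in the adult, with a limma adjusted p of 0.000398. In callosum it fell by 3.88 (SE 0.27, 95% interval -4.44 to -3.31), 14.7-fold lower, with an adjusted p of 1.21e-08. All adult arrays of a region were below all P7 arrays of that region. In callosum this was the thirteenth largest difference of all genes. Igf1 and Igfbp4 were the 2 members called in either region, both lower in the adult, where 6.15% of all genes were called lower in cortex and 10.7% in callosum. Both calls held in all 16 alternatives. These comparisons share their P7 arrays with the P7 comparison of the regions.

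The regional difference in Igf1 was itself smaller in the adult than at P7, by a contrast fitted in the same model. The change in the difference was -2.26 (SE 0.38, 95% interval -3.05 to -1.46) with a limma adjusted p of 0.0189, and 0.203% of all genes were called in that contrast. It kept its direction in every alternative, but the adjusted p rose above 0.05 when the compared groups were fitted alone (0.0588), when cortex P7 replicate 2 or 3, cortex adult replicate 2 or 3 or callosum adult replicate 2 was left out (0.051 to 0.0741), and when both adult arrays numbered 1 were left out (0.0776). Against P3 the change was -1.18 (SE 0.38, adjusted p 0.177), where 0.18% of genes were called. Between P3 and P7 it was 1.08 (SE 0.38, adjusted p 0.868), a contrast in which limma called 0 genes and 1260 had an unadjusted p under 0.05.

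Between P3 and P7 the level of Igf1 within a region did not pass the test. The difference was -0.77 in cortex (SE 0.27, 95% interval -1.33 to -0.21, adjusted p 0.21) and 0.31 in callosum (SE 0.27, 95% interval -0.25 to 0.88, adjusted p 0.653), and the arrays overlapped in both. The callosal value rested on callosum P7 replicate 1, without which it was -0.012. None of the 8 members were called by limma between P3 and P7, where 0.884% of genes were called in cortex and 0.739% in callosum. At an unadjusted p under 0.05 there were 3 members in cortex and 1 in callosum, against 2892 and 3149 of all 22180 genes. Ordered by mean level, Igf1 ran from callosum P7 (9.84) through callosum P3 (9.53), cortex P3 (8.17), cortex P7 (7.40) and callosum adult (5.96) to cortex adult (5.79). Of the neighbours in that order, callosum P7 and P3 and the adult regions did not differ beyond their spread. Cortex P3 and P7 had an interval without 0 (unadjusted p 0.0103 in limma) but were not called after adjustment. Cortex P7 and callosum adult were not tested against each other, and their arrays did not overlap.

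Markers of border macrophages, the myeloid cells of the meninges and vessels that pass the same sort, moved with Igf1 in part. The mean over their 10 markers was 6.19 to 6.92 on callosum P3 arrays against 5.88 to 6.33 on cortex P3 arrays, 6.37 to 6.59 against 6.19 to 6.47 at P7, and 5.19 to 5.36 on all adult arrays. Of these markers 2 were called higher in callosum than in cortex at P3, 1 at P7 and 0 in the adult, none lower, where 0.505%, 0.451% and 0.00451% of all genes were called in either direction. The mannose receptor Mrc1 was not among them: its difference was -0.72 at P3 (adjusted p 0.255) and -0.48 at P7 (adjusted p 0.837), with callosum arrays below cortex arrays at both ages. The folate receptor Folr2, named here after its values were seen, was higher in callosum by 1.63 at P3 and by 1.95 at P7 in limma's test. Between P7 and the adult 4 of the 10 fell in cortex and 5 in callosum, where 6.15% and 10.7% of all genes were called lower, and Mrc1 fell by 4.23 and 4.44. Of 6 monocyte markers, 1 was called higher in callosum at P3 and 0 at P7. That marker, Lyz2, was higher by 0.90 at P3 and by 0.76 at P7 (limma adjusted p 0.119), without overlap at either age. Between P7 and the adult Lyz2 was called lower, by 0.82 in cortex and 1.22 in callosum. Plac8 was called lower by 0.60 in cortex and S100a4 by 1.05 in callosum, whereas Ccr2 was called higher by 0.77 and 0.44. These 4 genes are named here after their values were seen. Neutrophil markers were not called in any of these comparisons, and without the 3 arrays on which they were highest Igf1 kept its calls between regions at P3 and P7. Of 6 choroid plexus markers, Ttr, which encodes the carrier protein transthyretin and is named here after its values were seen, also fell by 3.14 in callosum between P7 and the adult (SE 0.85, adjusted p 0.0144 in limma), and no other marker of that list was called in any comparison. Ttr was 1.73 higher in callosum than in cortex at P7 (SE 0.85, adjusted p 0.747), with overlapping arrays. It read 9.03 to 11.73 on callosum P7 arrays, 7.58 to 9.75 on cortex P7 arrays and 6.74 to 7.81 on adult arrays. At P3 Ttr read 7.56 to 11.89 in callosum and 9.19 to 10.61 in cortex, a difference of 0.36 (SE 0.85, limma adjusted p 0.91). The mean over the 6 markers was 5.65 to 6.46 on callosum P7 arrays, 5.40 to 5.83 on cortex P7 arrays, 5.43 to 5.58 on callosum adult arrays and 5.21 to 5.39 on cortex adult arrays. At P3 that mean was 5.39 to 6.25 in callosum and 5.59 to 6.06 in cortex. The part of border macrophages, monocytes, neutrophils and choroid plexus cells in the Igf1 result was not tested.

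Igf2, the other ligand, on chromosome 7 from 142650768 to 142666816, stayed at or under the array medians in every group. It read 5.27 to 5.51 on cortex P3 arrays, 4.93 to 5.64 on callosum P3 arrays, 5.004 to 5.67 on cortex P7 arrays, 5.08 to 5.52 on callosum P7 arrays, 5.11 to 5.48 on cortex adult arrays and 5.16 to 5.69 on callosum adult arrays. All groups overlapped. The differences ran from -0.14 to 0.16, and 0 of the 10 limma tests of Igf2 gave a call or an unadjusted p under 0.05. The intervals of these differences reached from -0.56 to 0.75.

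Igf1r, the signalling receptor, on chromosome 7 from 67952257 to 68233668, was above the array medians in every group and differed far less than its ligand. It read 6.49, 6.29 and 6.57 on cortex P3 arrays and 6.71, 6.62 and 7.36 on callosum P3 arrays. At P7 it read 6.52, 6.59 and 6.41 in cortex and 6.94, 6.68 and 6.69 in callosum. Callosum arrays were above cortex arrays at both ages, and callosum P3 replicate 3 was the highest of all 18. The regional difference was 0.45 at P3 (SE 0.17, 95% interval 0.09 to 0.80, adjusted p 0.257) and 0.26 at P7 (SE 0.17, 95% interval -0.09 to 0.62, adjusted p 0.886), so neither passed limma's test. Without callosum P3 replicate 3, which also had the highest neutrophil markers, the P3 difference was 0.21.

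At P3 the arrays of the regions did not overlap for 4 of the 8 members, Igf1 and Igf1r higher in callosum and Igfbp4 and Igfbp7 lower, where 15.8% of all genes did not overlap. At P7 this held for 2 members, Igf1 and Igf1r, against 16.7% of all genes, and in the adult for 0, against 12.8%. Adult Igf1r read 6.42, 6.54 and 6.68 in cortex and 6.19, 6.35 and 6.61 in callosum, which overlapped, with a difference of -0.16 (SE 0.17, adjusted p 0.842). Between P7 and the adult it was 0.04 in cortex (SE 0.17, adjusted p 0.951) and -0.39 in callosum (SE 0.17, 95% interval -0.74 to -0.04, adjusted p 0.128). The callosal arrays of the adult lay below those of P7 without overlap, and the value did not pass the test.

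Igf2r, the receptor that clears IGF2 and also carries lysosomal enzymes, lies on chromosome 17 from 12682406 to 12769706. Its 18 arrays read 4.75 to 5.19, under every array median, and its group means ran from 4.88 ± 0.11 (SD, n = 3) in cortex adult to 5.09 ± 0.10 in callosum P3. The differences ran from -0.11 to 0.17, with intervals from -0.41 to 0.47, and 0 of 10 limma tests gave a call or an unadjusted p under 0.05.

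Igfbp4, a binding protein that holds IGFs until the protease PAPP-A cleaves it, was the only other member called in any comparison. It was high at both young ages and lower in the adult of both regions. On cortex P7 arrays it read 8.16, 8.47 and 8.45 and on cortex adult arrays 6.75, 7.20 and 6.76, a fall of 1.46 (SE 0.17, 95% interval -1.81 to -1.10), which is 2.75-fold lower, with a limma adjusted p of 7.54e-06. On callosum P7 arrays it read 7.67, 8.24 and 8.17 and on callosum adult arrays 6.66, 6.79 and 6.96. This was a fall by 1.22 (SE 0.17, 95% interval -1.57 to -0.87), 2.33-fold lower, with an adjusted p of 4.02e-05. P7 and adult arrays did not overlap in either region, and both calls held in all 16 alternatives.

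Unlike Igf1, Igfbp4 was not called between regions at any age. Its arrays read 8.14, 7.65 and 7.99 in cortex P3 and 7.50, 7.42 and 7.38 in callosum P3, without overlap. The difference was -0.49 (SE 0.17, 95% interval -0.85 to -0.14, adjusted p 0.206). It was -0.34 at P7 (SE 0.17, adjusted p 0.768) and -0.10 in the adult (SE 0.17, adjusted p 0.912), where the arrays overlapped. From P3 to P7 the value was 0.43 in cortex (SE 0.17, adjusted p 0.268) and 0.59 in callosum (SE 0.17, adjusted p 0.106). P7 arrays were above P3 arrays in both regions, and neither value passed the test. The regional difference in Igfbp4 in the adult minus that at P7 was 0.24 (SE 0.24, 95% interval -0.26 to 0.74, adjusted p 0.912).

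Igfbp7, a secreted protein that binds IGFs weakly and is abundant in vessel walls, lies on chromosome 5 from 77349240 to 77408045. It read 5.86, 5.42 and 6.01 on cortex P3 arrays and 5.07, 5.40 and 5.19 on callosum P3 arrays, the only age at which the regions did not overlap. The difference was -0.54 (SE 0.19, 95% interval -0.94 to -0.15, adjusted p 0.214). In cortex the P7 arrays read 4.87, 4.99 and 5.498, giving -0.64 against P3 (SE 0.19, 95% interval -1.04 to -0.25, adjusted p 0.123), with 1 pair of arrays overlapping. None of its 10 limma tests passed, and 4 had an unadjusted p under 0.05. At P3 the mean over 10 endothelial markers was 5.36 to 5.59 on cortex arrays and 5.26 to 5.41 on callosum arrays, and the mean over 9 mural cell markers was 5.69 to 5.80 and 5.55 to 5.63. The part of vascular cells in the Igfbp7 values was not tested.

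Igfbp2 and Igfbp5 lie near each other on chromosome 1, from 72824480 to 72852474 and from 72858065 to 72874865. Igfbp2, which binds IGF2 with preference and is abundant in the developing brain, read 5.24 to 5.94 over the 18 arrays. Igfbp5, which binds extracellular matrix as well as IGFs, read 4.48 to 5.55, with both extremes on callosum P3 arrays. Neither gene was called in any comparison. With Igf2 and Igf2r they gave 0 limma calls in 40 tests and 0 with an unadjusted p under 0.05, and their largest difference in either direction was 0.28. The intervals reached from -0.87 to 0.75. In 2 comparisons Igfbp5 had arrays that did not overlap, lower at P7 than at P3 in cortex (-0.23, adjusted p 0.683) and lower in the adult than at P7 in callosum (-0.24, adjusted p 0.459).

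**Figure D2:**
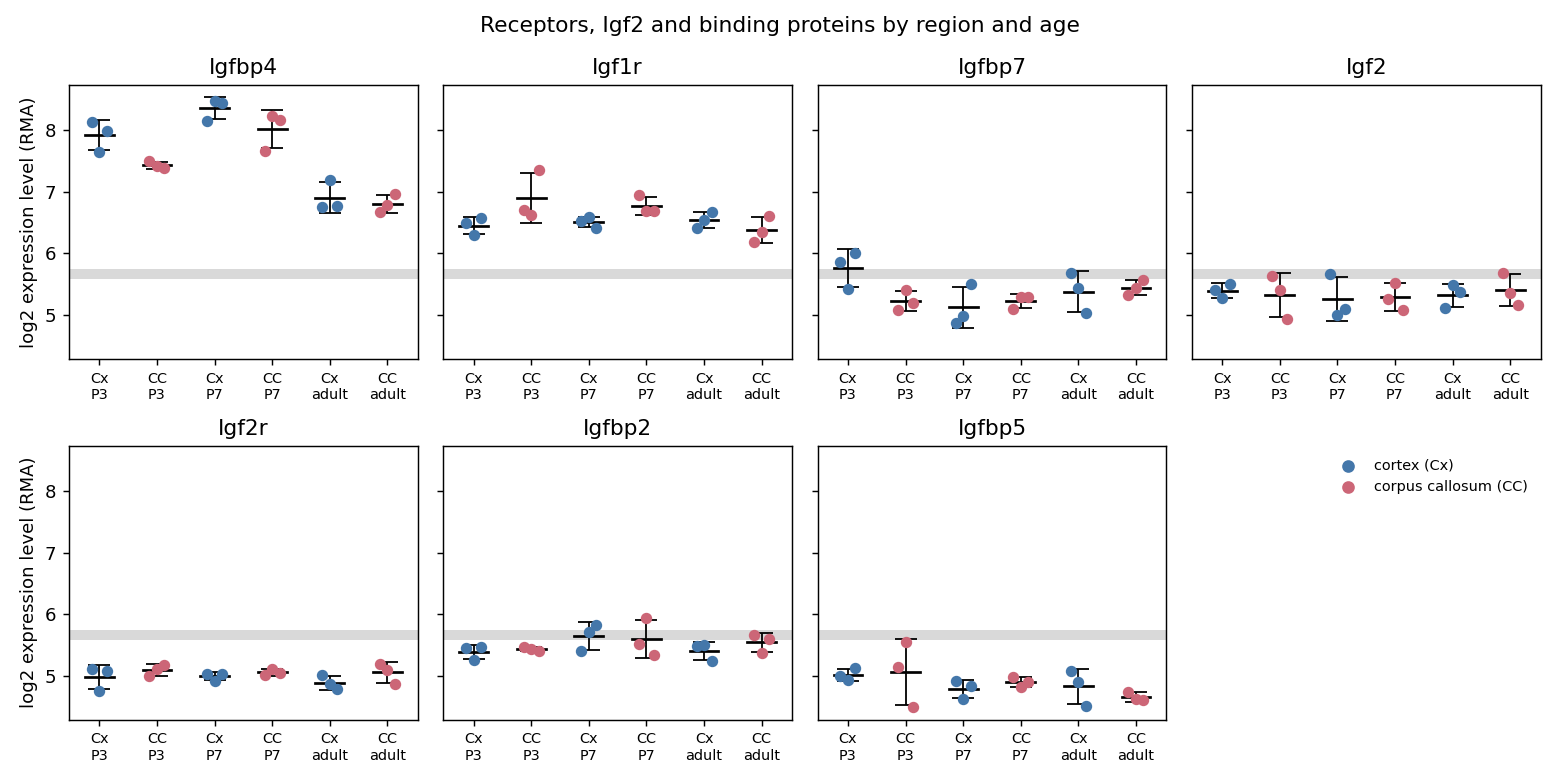
Log2 expression level (y axis, the same in every panel) of the other 7 genes by region and age (x axis). Points are single arrays, blue for cortex and red for corpus callosum; bars are the mean ± SD of 3 arrays and the grey band is the range of array medians. Igfbp4 is lower on the adult arrays than on the P7 arrays, Igf1r lies above the band, and Igf2, Igf2r and Igfbp5 lie in or under it.

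Over the ages within a region, counts of members whose arrays did not overlap stood at 2 in cortex and 1 in callosum between P3 and P7, against 21.3% and 18.8% of all genes. Between P7 and the adult they stood at 2 in cortex and 5 in callosum, against 27.3% and 34.6%. Of the 5 in callosum, Igf1, Igf1r, Igfbp4 and Igfbp5 were lower in the adult and Igfbp7 was higher by 0.21 (SE 0.19, adjusted p 0.496).

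**Figure D3:**
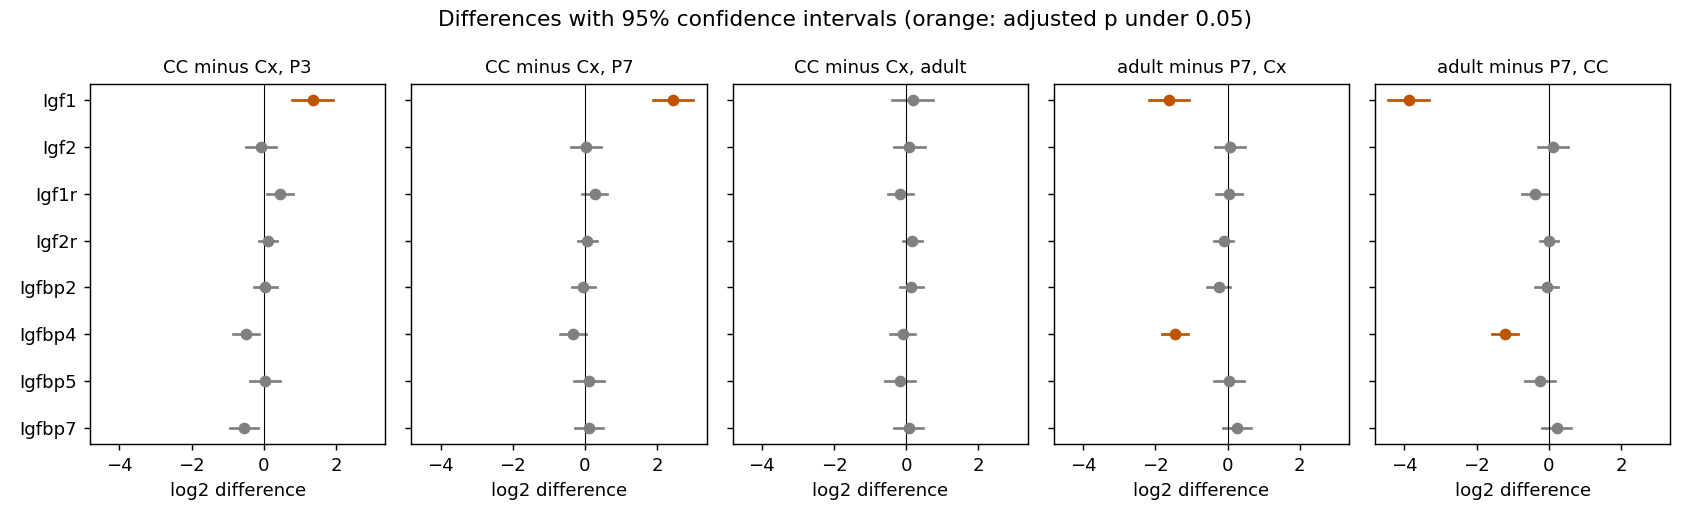
Differences in log2 level (x axis) of the 8 genes (y axis) with their 95% confidence intervals, in the 3 comparisons of callosum (CC) with cortex (Cx) and the 2 of adult with P7. Orange marks an adjusted p under 0.05 in limma: Igf1 in the P3, P7 and both age comparisons, and Igfbp4 in both age comparisons; grey marks the rest.

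Igf1 and Igfbp4 had different company among the other genes. Likeness was measured by Pearson's r over the 18 arrays, among 1523 genes whose group means spanned at least 1 on the log2 scale. The arrays of a group share its region and age, so r is a description of profiles. The profiles most like Igf1 were those of Cstb (r 0.97), an inhibitor of cysteine proteases, Plxnc1 (0.97), a semaphorin receptor, Abcg3 (0.97), an ABC transporter, Fabp5 (0.97), a fatty acid binding protein, Gpnmb (0.96), a transmembrane glycoprotein, and Ttyh2 (0.96), a tweety family membrane protein. Gpnmb had group means of 10.05 in callosum P7 and 9.65 in callosum P3 against 6.81 and 7.12 in cortex, and 5.63 to 5.68 in the adult. Fabp5 had 11.58 and 11.39 in young callosum, 9.54 and 10.16 in young cortex, and 6.10 to 6.73 in the adult. The most opposed profiles were those of Tgfbr1 (r -0.95), a TGF-beta receptor, and Dock10 (-0.95), a guanine nucleotide exchange factor, which were highest in the adult.

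Within groups the likeness was lower for all of these genes. Over deviations from the group means, r with Igf1 was 0.81 for Gpnmb, 0.75 for Abcg3, 0.71 for Plxnc1, 0.60 for Fabp5, 0.42 for Cstb and 0.37 for Ttyh2. For Tgfbr1 it was -0.01 and for Dock10 -0.33. The profiles most like Igfbp4 were Kif14 (r 0.97), a kinesin of cell division, Dnmt1 (0.96), the maintenance DNA methyltransferase, and Ccdc18 (0.96), a coiled-coil protein. Kif14 had its highest group mean in cortex P7 (7.54) and its lowest in cortex adult (5.39).

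**Figure D4:**
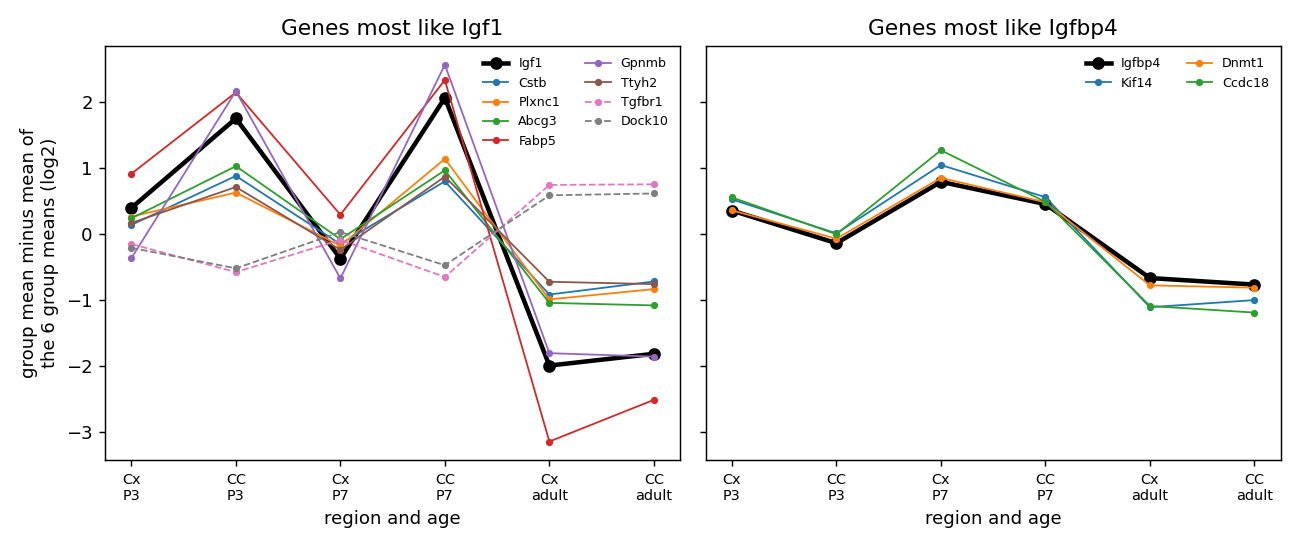
Group means minus the mean of the 6 group means (y axis, log2) by region and age (x axis), for Igf1 with the 6 most similar and the 2 most opposed genes (dashed) on the left, and for Igfbp4 with the 3 most similar genes on the right. The genes like Igf1 peak in young callosum, whereas Igfbp4 and its neighbours are highest in cortex P7.

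The wider pathway was described with lists of genes beside the 8. The other IGF and insulin family, 11 genes measured, gave 0 limma calls in each of the 10 comparisons, with at most 1 gene at an unadjusted p under 0.05. Its insulin receptor Insr read 7.54 to 8.10 and differed by at most 0.30. The binding protein Igfbp6 read 5.41 to 6.52. The binding protein Igfbp3 (5.33 to 5.94), the growth hormone receptor Ghr (4.74 to 5.36) and the protease Pappa (5.34 to 5.92), which cleaves IGFBP4, were near or under the array medians. With the receptor substrates Irs1 (4.51 to 5.17) and Irs2 (6.37 to 7.79), these 7 genes gave 0 limma calls in 70 tests and 4 with an unadjusted p under 0.05. Irs2 was highest on callosum P3 replicate 3.

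Among 12 proteases and inhibitors that act on binding proteins, 1 fell between P7 and the adult and the median difference was 0.16 in cortex and 0.12 in callosum, against 0.03 and 0.05 over all genes, of which 6.15% and 10.7% were called lower. That gene was Adam9, a membrane metalloprotease. It fell by 1.11 in cortex (SE 0.14, adjusted p 2.6e-05) and by 1.51 in callosum (SE 0.14, adjusted p 5.15e-07) in limma's test, and its arrays did not overlap. No other comparison called a gene of this list. Of the IGF2 mRNA binding proteins only Igf2bp3, an RNA-binding protein known from fetal tissue, was measured here, and it fell by 2.01 in cortex (SE 0.18, adjusted p 2.77e-07) and by 1.86 in callosum (SE 0.18, adjusted p 7.16e-07).

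In the PI3K-AKT-mTOR-FOXO list, 25 genes were measured. Between P7 and the adult 5 rose and 0 fell in cortex, with a median difference of 0.19, and 6 rose and 3 fell in callosum, with a median of 0.09. All genes had medians of 0.03 and 0.05, with 10.2% called in either direction in cortex and 17.2% in callosum. Pik3r5, a regulatory subunit of PI3K gamma, rose by 0.76 in cortex (SE 0.15, adjusted p 0.00208) and 0.81 in callosum (SE 0.15, adjusted p 0.000761). The lipid phosphatase Inpp5d (SHIP1), which opposes PI3K in myeloid cells, rose by 0.59 (SE 0.13, adjusted p 0.00508) and 0.72 (SE 0.13, adjusted p 0.000595). The catalytic subunit Pik3cb rose by 0.76 in cortex (SE 0.16, adjusted p 0.0033) and the regulatory subunit Pik3r1 by 0.65 in callosum (SE 0.10, adjusted p 0.000112). Each is given in 1 region because at most 3 called genes per direction were named. The mean of Pik3cb was also higher in adult callosum (7.47) than at P7 (6.86). That of Pik3r1 was higher in adult cortex (9.81) than at P7 (9.24). In callosum the kinase Akt1 fell by 0.52 (SE 0.17, adjusted p 0.0367), the phosphatase Inppl1 (SHIP2) by 0.50 (SE 0.14, adjusted p 0.019) and the mTOR activator Rheb by 0.48 (SE 0.13, adjusted p 0.0123). Each of these 3 falls lost its call in some alternatives, 8 of 16 for Akt1, 7 for Inppl1 and 3 for Rheb. In cortex Akt1, Inppl1 and Rheb were not called, and no gene of the list was called for a change in the regional difference.

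Of 11 adaptors, the docking protein Gab1 rose in cortex between P7 and the adult by 0.61 (SE 0.15, adjusted p 0.0121), a call lost without cortex P7 replicate 3 (adjusted p 0.0556). In callosum limma called none, and 1 had an unadjusted p under 0.05, as did 6405 of all 22180 genes. The list's medians were 0.08 and 0.04. For this and the next 2 lists, the share of all genes called between P7 and the adult was 10.2% in cortex and 17.2% in callosum. Of 9 RAS-MAPK genes, Dusp6, a phosphatase of ERK, rose by 0.41 in cortex (SE 0.11, adjusted p 0.0179) and 0.56 in callosum (SE 0.11, adjusted p 0.00103). The cortex call was lost without cortex P7 replicate 2 (adjusted p 0.0815), without cortex adult replicate 1 (0.0606) and without both adult arrays numbered 1 (0.0652). The GTPase Nras fell by 0.55 (SE 0.12, adjusted p 0.00385) and 0.62 (SE 0.12, adjusted p 0.000861), and the phosphatase Ptpn11 fell by 0.68 in callosum (SE 0.22, adjusted p 0.0358), a call lost in 7 of 16 alternatives. The list's medians were 0.13 in cortex and -0.03 in callosum. Of the 10 genes of the growth hormone and STAT5 list, Stat5b, a transcription factor downstream of the growth hormone receptor, rose in cortex from P3 to P7 by 0.65 (SE 0.14, adjusted p 0.0393) and in callosum from P7 to adult by 0.46 (SE 0.14, adjusted p 0.0306). Each of these calls was lost in 7 of 16 alternatives. From P3 to P7 in cortex 0.884% of all genes were called.

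**Figure D5:**
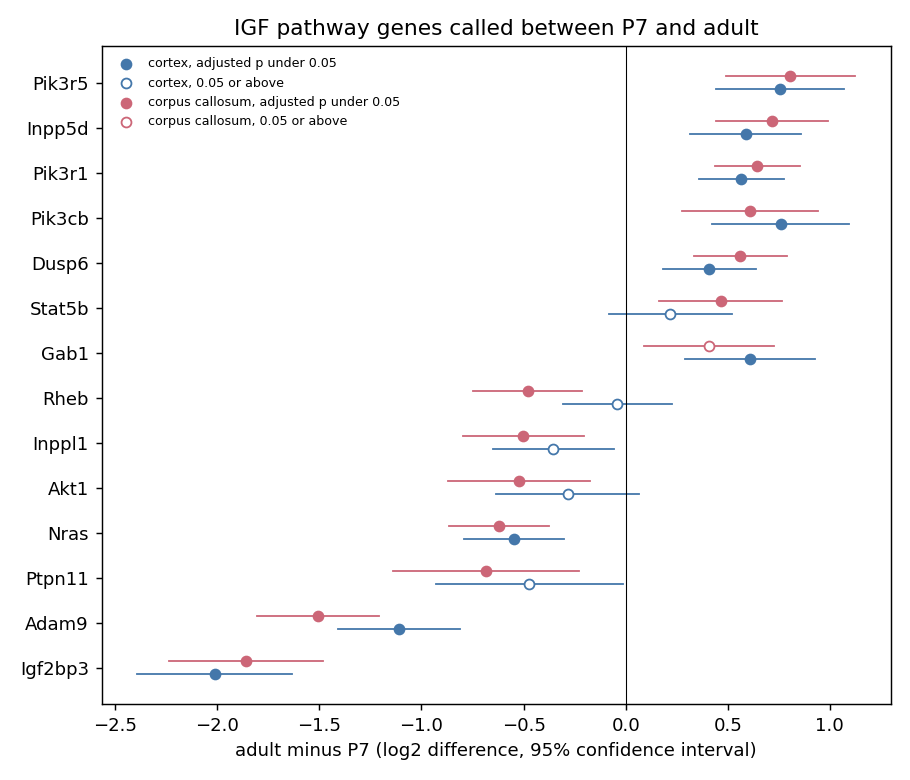
Adult minus P7 difference in log2 level with its 95% confidence interval (x axis) for pathway genes called in either region (y axis), in cortex (blue) and corpus callosum (red). Filled points have an adjusted p under 0.05 in limma. Igf2bp3 and Adam9 show the largest falls, of 1.11 to 2.01, and Pik3r5, Inpp5d, Pik3r1, Pik3cb and Dusp6 are higher in the adult in both regions.

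Regional calls in these lists were few. At P3 the lists gave 1 call, Meg3, an imprinted long noncoding RNA, among 10 genes of the imprinted growth network. Over all genes 0.505% were called there. It was lower in callosum by 1.32 on the log2 scale (-1.32, SE 0.21, adjusted p 0.0074 in limma) and it fell in cortex from P3 to P7 by 1.83 (SE 0.21, adjusted p 0.000367). The regional call was lost when the compared groups were fitted alone (-1.32, adjusted p 0.133) and without cortex P3 replicate 2 (-1.23, adjusted p 0.0538). Its cortex P3 arrays read 7.83 to 8.14, above the 6.06 to 7.04 of callosum P3 and the 5.99 to 6.26 of cortex P7. The mean over 14 neuron markers was likewise 6.02 to 6.30 on cortex P3 arrays, 5.53 to 5.94 on callosum P3 arrays and 5.63 to 5.70 on cortex P7 arrays, and Snap25, a neuronal synaptic protein, read 6.00 to 6.37 on cortex P3 arrays. The part of neuronal RNA in the Meg3 values was not tested. At P7 and in the adult, limma called no gene of any of these pathway lists between regions. At an unadjusted p under 0.05 the lists held at most 2 and 3 genes each, against 1526 and 1888 of all 22180 genes.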

How the data were processed

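Expression was measured on 18 one-colour arrays hybridised with amplified total RNA. The authors deposited log2 expression values made with RMA, per the submitters' processing notes, which corrects background, equalises array distributions and sums probes to probe sets; its version and whether the P3 arrays were normalised together with the others were not stated in the labels used here, and the base of the logarithm was taken as 2. Such values give no read depth, so the number of arrays limits the precision. Equal distributions hide a shift common to all genes. Levels were set beside the array medians over all probe sets, but no test compared the level of one gene with that of another.

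Of 41345 probe sets, 23521 had 1 gene symbol, 1814 several and 16010 none in the platform annotation, which can be old; 23328 were matched to RefSeq. Those without a single symbol were not used here. The brightest probe set represented each of 22180 genes, of which 1082 had more than 1. One limma 3.58.1 model (R 4.3.3) with a mean per group gave all 10 comparisons, with 12 residual degrees of freedom, and was tested on simulated data. Groups came from the sample labels. The members, lists and markers were chosen with earlier results of these data known. Named were the 8 members, up to 3 called genes per list, direction and comparison, the 7 genes Insr, Irs1, Irs2, Igfbp3, Igfbp6, Ghr and Pappa, the 6 highest and 2 lowest r with Igf1, the 3 highest r with Igfbp4 (the only other member whose group means spanned at least 1), and Ly6g, Mrc1, Cldn5, Dcn, Snap25 and P2ry12. Clone, locus and small RNA names were passed over for likeness. Some listed genes were not analysed here. Alternatives changed normalisation, centring, the variance prior, a filter on dim genes, probe set choice, groups in the fit, array weights, a replicate block and single arrays.

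Mean levels per array of the other marker lists were 5.23 to 5.63 for astrocytes, 5.29 to 5.56 for oligodendrocytes, 5.11 to 6.10 for oligodendrocyte precursors, 5.02 to 5.29 for meningeal fibroblasts and 6.03 to 6.58 for monocytes.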

Additional observations from a re-analysis of the deposited data

Results flagged for a closer look

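The effect of region on Igf1 was called as different between P7 and the adult. The callosum minus cortex difference in the adult minus that at P7 was -2.26 on the log2 scale (SE 0.38), with an adjusted p of 0.0189 for this interaction contrast in limma. All 3 callosum arrays were above all 3 cortex arrays at P7, and the regions overlapped in the adult. The call was lost in 7 of 22 alternatives. Adult Igf1 read 5.69 to 6.20, near the array medians of 5.58 to 5.74, which limits what the adult side of this contrast can show.

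The same contrast was called for Folr2, a folate receptor listed among the border macrophage markers, at -1.56 (SE 0.31, limma adjusted p 0.0459). Whether this call held under the alternatives was not checked, and the 45 genes called in this contrast became 10 to 105 there. Folr2 read 8.81 to 9.88 on callosum P7 arrays against 7.18 to 7.35 on cortex P7 arrays, and 6.49 to 6.57 against 6.01 to 6.29 in the adult. The relation of this difference to that of Igf1 was not tested.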

How the results depend on the processing

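Of 30 called differences of members and pathway genes, 19 kept their call under every alternative, among them Igf1 between regions at P7 and Igf1 and Igfbp4 between P7 and the adult in both regions. No called difference reversed. Igf1 at P3 was 1.27 after a second quantile normalisation (adjusted p 0.0528) and 1.36 with array weights (0.0588), with 0 members called in both; leaving out single arrays gave 1.22 to 1.49 and 0 to 1 members called. The change in its regional difference from P7 to the adult was -2.26 with the compared groups alone (0.0588), -2.55 to -1.93 without single arrays (0 to 1 members called), and -2.41 without both adult arrays numbered 1 (0.0776), with 0 members called in the first and last. Uncalled values changed sign: Igf1 in callosum from P3 to P7 was -0.012 to 0.49 without single arrays and -0.15 without the 3 arrays with high neutrophil markers, Igf1r in cortex from P7 to the adult was -0.032 to 0.10 and Igfbp4 between adult regions -0.18 to 0.046 without single arrays. Leaving out both adult arrays numbered 1 and leaving out the high neutrophil arrays were chosen after seeing the data. The cause of these changes was not tested.

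Counts over all genes moved more. At P3 between regions 112 genes were called, and 186 with a variance trend, 273 without dim genes, 16 with the compared groups alone, 61 with array weights and 29 to 126 without single arrays. At P7 the count of 100 became 40 with those groups alone, 236 with weights, 58 without high neutrophil arrays and 48 to 90 without single arrays; in the adult 1 became 2, 3, 3 and 1 to 3. From P3 to P7, 196 in cortex became 644 with weights, 120 without high neutrophil arrays and 72 to 198 without single arrays, and 164 in callosum became 297 with the trend, 301 without dim genes, 5 with the groups alone, 370 with weights, 271 without adult arrays numbered 1 and 13 to 506 without single arrays. The 2264 genes between P7 and the adult in cortex became 3861 with weights. For the regional difference in the adult minus P7, 45 became 23 after a second quantile normalisation, 79 with the trend, 87 without dim genes, 24 with the groups alone, 105 with weights, 10 without adult arrays numbered 1, 20 without high neutrophil arrays and 12 to 47 without single arrays. Against P3, 40 became in the same order 13, 93, 202, 4, 0 (adult arrays numbered 1), 20 and 0 to 101, and 80 after centring on medians; P7 minus P3 gave 0 to 1 without single arrays.

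Replicate numbers recur in every group, and the labels do not say that they mark a shared animal or day. Deviations of same-numbered arrays of both regions at one age correlated between 0.016 and 0.30, over 0.1 in 4 of 9 pairs, and 15 of 18 arrays correlated best with their own number, a hint from the data only. Same-numbered arrays of different ages had a median r of 0.063 across regions and 0.048 within a region. For different numbers these medians were -0.030 and -0.029. What the number marks was not tested. With a replicate block, Igf1 stayed called between regions at P3 (1.35, limma adjusted p 0.00783) and P7, and 28 genes in place of 45 and 21 in place of 40 were called for the regional difference in the adult against P7 and against P3. The filter on dim genes gave no value for Igf2, Igf2r, Igfbp2, Igfbp5 and Igfbp7, whose levels near or under the array medians limit what their tests can show.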
